A study of Homo sapiens with 6 samples.

Results

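The genes described here encode the initiation and elongation factors of cytoplasmic translation. They are the protein-coding genes whose symbol starts with EIF or EEF followed by a digit, pseudogenes left out, and 71 of the 62700 genes in the table met that rule. Of these, 65 reached at least 1 FPKM (fragments per kilobase of gene, scaled to library depth) in at least 3 libraries and were tested among 12871 genes. The rule used names alone and no measured value.

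Initiation factors bring the initiator tRNA, the small ribosomal subunit and the capped mRNA together and let the subunit scan to the start codon. The eIF2 factor carries the initiator tRNA, eIF2B recharges it with GTP, eIF4F binds the cap and unwinds the leader, and the many-subunit eIF3 holds these parts on the small subunit. After the subunits join, eEF1 delivers aminoacyl-tRNAs and eEF2 moves the ribosome along the mRNA. The eIF2α kinases, the eIF4E-binding proteins and the eEF2 kinase act as brakes on these steps.

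The RNA came from A549, a long-established epithelial line from a human lung adenocarcinoma, grown in RPMI-1640 with serum. The 3 sgH2AC19 libraries are from knockout derivatives made with a guide against H2AC19, a gene for a histone H2A, and the 3 sgControl libraries carry a control guide and are labelled wild type. Whether either group is a clone or a pool is not given in the sources used here. The labels do not say whether the libraries of a group are separate cultures, and p-values therefore cover library-to-library spread alone, possibly technical.

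H2AC19 and its near-identical neighbour H2AC18 were listed at 0 FPKM in all 6 libraries, so the target could not be checked against the labels. Depth, as recovered read totals, was 35681162 to 45738439 in sgH2AC19 and 36255807 to 40570759 in sgControl. The 9 epithelial markers were all tested, and 6 were called higher, for example KRT18 at 409 to 415 FPKM in sgH2AC19 and 298 to 306 in sgControl. The 2 called lower were KRT19 and KRT7, with log2 fold changes of -0.45 and -0.19. Of all genes tested, 12% were called higher and 11% lower. Endothelial markers summed to 0.556 to 0.722 FPKM in sgH2AC19 and 0.47 to 0.950 in sgControl, and leukocyte markers to 0.715 to 1.08 in sgH2AC19 and 0.796 to 1.01 in sgControl, with CD3E and MS4A1 at 0. Fibroblast markers summed to 5.17 to 6.03 FPKM in sgH2AC19 and 3.29 to 3.76 in sgControl. Of these, LUM rose (limma adjusted p = 0.0208). COL1A1 had 1.30 to 1.53 FPKM in sgH2AC19 and 0.585 to 0.711 in sgControl. It reached 1 FPKM in the sgH2AC19 libraries alone and was tested only through them, so its p-value is left out. COL1A2 was at 0.00518 FPKM or less in each library. The part of this fibroblast marker difference in the results below was not tested.

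Most translation factor genes differed little between the groups. Of the 65 tested, 3 rose in sgH2AC19 (EIF3F, EIF3B and EEF2K), 10 fell (EIF1, EEF1A1, EEF1B2, EIF3D, EIF3H, EIF3I, EIF3K, EIF3M, EIF2AK2 and EIF5A2), and 52 did not pass limma's test at an adjusted p of 0.05. The 13 called are 20% of those tested, against 23.1% of all genes tested. The rises are 4.62% against a background of 12%, and the falls are 15.4% against 11%. No member changed by more than 1.5-fold, and the called changes were 0.15 to 0.30 in size on the log2 scale, against a median of 0.32 over all called genes.

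Over all tested members, fold changes lay slightly below 0. The median log2 fold change was -0.08, against -0.01 over all genes tested, and 45 of 65 (69.2%) were negative, against 51.2% of all genes. Library values did not overlap between the groups for 23 members on the lower side (35.4%, background 21.7%) and for 6 on the higher side (9.23%, background 21.5%). Summed over the 71 genes, FPKM were 2594 to 2735 in sgH2AC19 and 2839 to 2885 in sgControl. In bulk RNA, fewer cells of a type and less RNA per cell cannot be told apart. The lengths behind the FPKM of the tested members ranged between 880 and 37761 bases with a median of 5436, so levels of different genes depend on the annotation used. Most calls were lost without any single sgControl library: without replicate 1, 2 or 3 of sgControl, 2, 2 and 3 of 65 members were called. Over all genes tested, 1663 of 12659, 1513 of 12644 and 1632 of 12634 were then called. Without sgH2AC19 replicate 1, 2 or 3, 11, 8 and 15 of 65 members were called. The numbers over all genes were 2135 of 12628, 1965 of 12648 and 3429 of 12681. Of the members, EIF3F and EIF1 alone were called under each of the 14 alternatives tried.

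**Figure D1:**
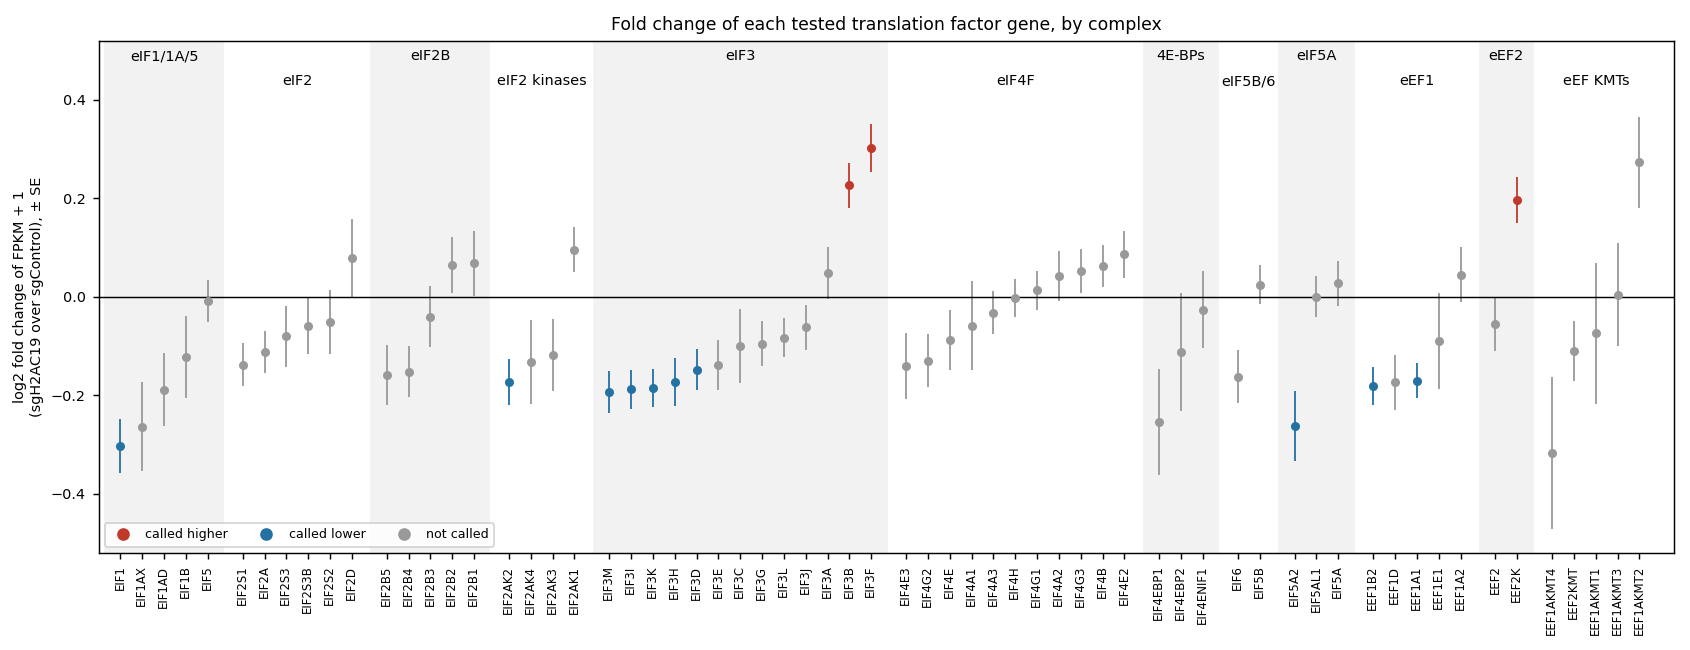
Log2 fold change of FPKM + 1, sgH2AC19 over sgControl, with limma's SE, for each tested translation factor gene on the linear axis, ordered within complexes; EIF1AY is not drawn. The called members lie between -0.30 and 0.30, and the 2 called rises of eIF3 stand apart from its other subunits.

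The eIF3 complex held 7 of the 13 calls, in both directions. Of its 13 tested subunits, 2 rose (EIF3B and EIF3F), 5 fell (EIF3D, EIF3H, EIF3I, EIF3K and EIF3M), and 6 did not pass the test. Of all genes tested, 12% rose and 11% fell. EIF3F, a subunit of the core that also carries an MPN domain, had 8.61, 8.57 and 7.94 FPKM in sgH2AC19 and 6.57, 6.56 and 6.67 in sgControl. Every sgH2AC19 library lay above every sgControl library, with a log2 change of 0.30 (SE 0.048, limma adjusted p = 0.00608). EIF3B, the scaffold of the module that also holds EIF3G and EIF3I, had 30.8, 29.9 and 28.4 FPKM in sgH2AC19 and 25.0, 24.9 and 25.8 in sgControl. Its groups did not overlap either, and its log2 fold change was 0.23 (SE 0.046, limma adjusted p = 0.0141), but the call was lost without sgControl replicate 1 or 2 (highest adjusted p = 0.0568 by limma).

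The 5 eIF3 subunits that fell did so by 0.15 to 0.19 on the log2 scale. EIF3I, the WD-repeat partner of EIF3B, had 16.7, 16.3 and 16.2 FPKM in sgH2AC19 and 18.9, 18.8 and 18.9 in sgControl (log2 fold change -0.19, SE 0.039, limma adjusted p = 0.0156). EIF3K, a core subunit, had 83.7, 82.9 and 79.3 FPKM in sgH2AC19 and 92.1, 94.3 and 93.5 in sgControl (log2 fold change -0.19, SE 0.039, limma adjusted p = 0.0165). EIF3M, another core subunit, had 33.2, 32.2 and 31.8 FPKM in sgH2AC19 and 36.6, 38.5 and 36.6 in sgControl (log2 fold change -0.19, SE 0.043, limma adjusted p = 0.0185). In each of these 3 genes all sgH2AC19 libraries were below all sgControl libraries. EIF3D, which can bind the cap of selected mRNAs, had 35.0, 36.0 and 34.8 FPKM in sgH2AC19 and 40.2, 39.3 and 38.1 in sgControl (log2 fold change -0.15, SE 0.041, limma adjusted p = 0.0403). EIF3H, the other MPN-domain subunit, had 41.2, 41.5 and 38.7 FPKM in sgH2AC19 and 46.1, 47.3 and 43.8 in sgControl (log2 fold change -0.17, SE 0.049, limma adjusted p = 0.0418). Again the groups did not overlap, yet each of these 5 falls lost its call without any single sgControl library, with limma adjusted p up to 0.145. The calls of EIF3D and EIF3H were also lost without sgH2AC19 replicate 1, that of EIF3D without replicate 2 as well, that of EIF3M without replicate 2, and that of EIF3H without replicate 2 or 3.

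The other eIF3 subunits gave smaller differences. EIF3E, EIF3G and EIF3L were lower in every sgH2AC19 library than in any sgControl library without passing the test, with log2 fold changes of -0.14, -0.10 and -0.08 (limma adjusted p = 0.0913, 0.171 and 0.170). EIF3A, the largest subunit, had 84.8 to 94.8 FPKM in sgH2AC19 and 83.9 to 89.4 in sgControl, EIF3C 2.10 to 2.49 and 2.27 to 2.68, and EIF3J, a loosely bound subunit, 44.6 to 47.9 and 46.8 to 49.6, all overlapping. EIF3CL, a near-copy of EIF3C that shares 99.9% of its aligned bases, stood at 0.0517 to 0.165 FPKM in sgH2AC19 and 0.0746 to 0.162 in sgControl and was not tested. Reads of EIF3C and EIF3CL cannot be told apart with certainty, so the level of EIF3C is uncertain. The summed FPKM of the 14 subunits was 431 to 456 in sgH2AC19 and 464 to 475 in sgControl.

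**Figure D2:**
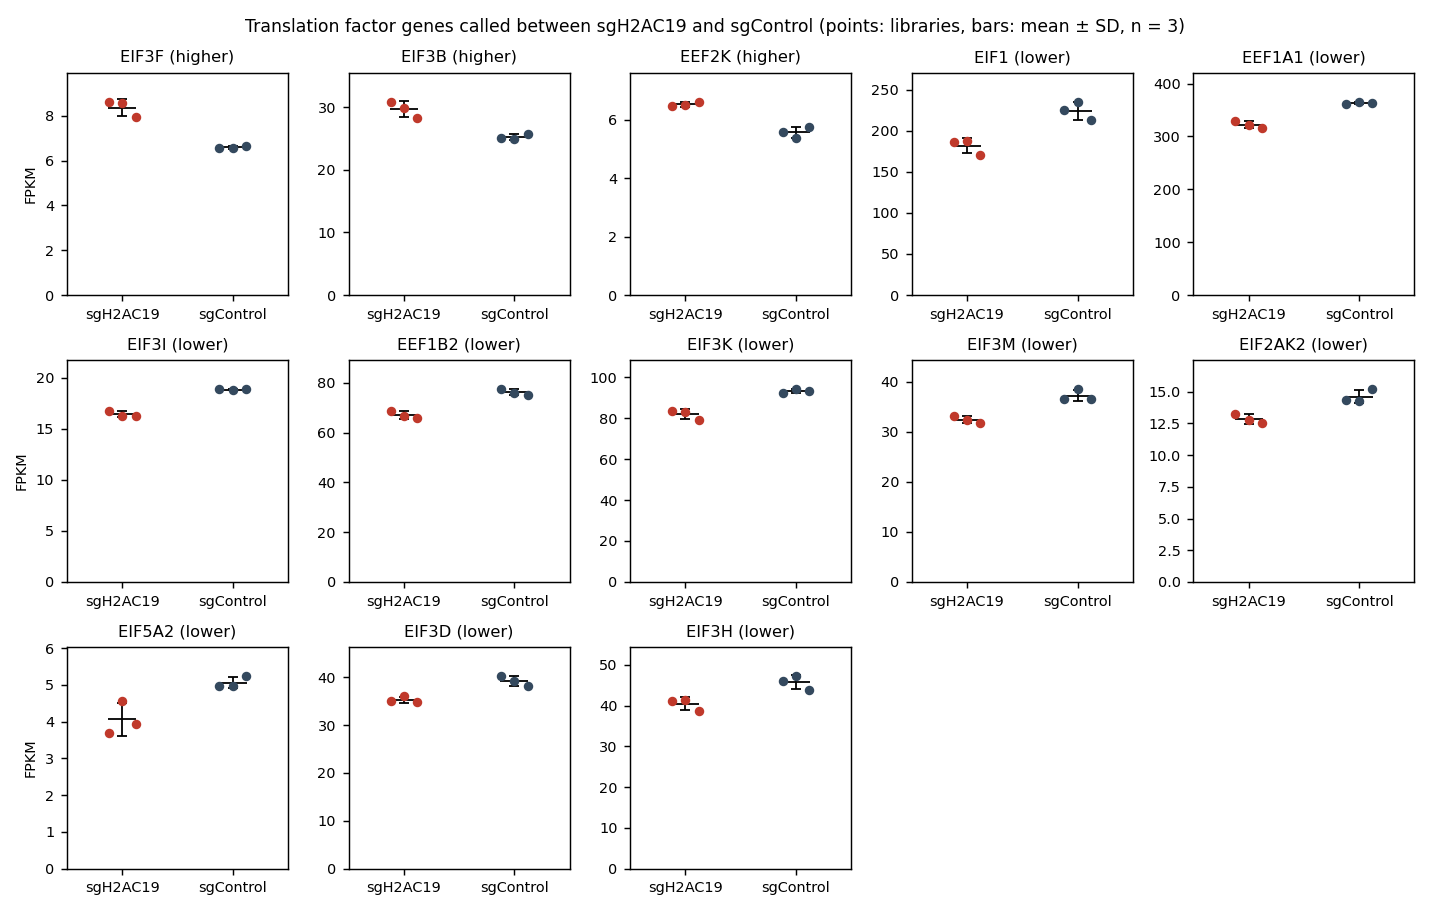
FPKM on linear axes from 0 for the 13 called translation factor genes, with points for the 3 libraries of each group and bars for mean and SD. EIF3F, EIF3B and EEF2K are higher in every sgH2AC19 library and the other 10 are lower in every one.

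Among the genes grouped here under scanning for the start codon, EIF1 fell. EIF1, which keeps the scanning complex open until a start codon is met, had 187, 188 and 171 FPKM in sgH2AC19 and 225, 235 and 214 in sgControl. No library of one group reached the other group's range, and the log2 fold change was -0.30 (SE 0.055, limma adjusted p = 0.00945), the largest fall among called members. EIF1AX, the X-linked eIF1A gene, had 22.9, 25.3 and 29.8 FPKM in sgH2AC19 and 30.2, 31.1 and 32.4 in sgControl. Its groups did not overlap, but the spread within sgH2AC19 was wide and it did not pass the test (log2 fold change -0.26, SE 0.090, limma adjusted p = 0.0733). EIF1B (a paralog of EIF1), EIF1AD (a member by its name) and EIF5 (the GTPase activator of eIF2) had overlapping groups. Their log2 fold changes were -0.12, -0.19 and -0.01. EIF1AY lies on the Y chromosome and its level is not reported here.

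Among the elongation factors that deliver tRNA, 2 of 5 tested genes fell and 3 did not pass the test, where 11% of all genes tested fell. EEF1A1, the main eEF1A, had 329, 322 and 316 FPKM in sgH2AC19 and 361, 365 and 362 in sgControl (log2 fold change -0.17, SE 0.035, limma adjusted p = 0.0152). EEF1B2, a subunit of the exchange factor that recharges eEF1A, had 68.7, 66.7 and 65.7 FPKM in sgH2AC19 and 77.5, 75.9 and 75.1 in sgControl (log2 fold change -0.18, SE 0.039, limma adjusted p = 0.0163). Both genes were lower in each sgH2AC19 library than in any sgControl library, and both calls were lost without any single sgControl library, with limma adjusted p up to 0.0713. With all genes above 0 FPKM tested, EEF1A1 also lost its call (limma adjusted p = 0.0783). EEF1D, a further exchange subunit, was also lower in each sgH2AC19 library, at 7.99 to 9.04 FPKM in sgH2AC19 and 9.36 to 9.68 in sgControl, but did not pass the test (limma adjusted p = 0.0636). EEF1E1, a component of the multi-synthetase complex, and EEF1A2, the muscle and brain paralog of EEF1A1, overlapped. EEF1A2 held 8.51%, 7.75% and 8.35% of the summed FPKM of the eEF1A genes in sgH2AC19 and 7.12%, 7.32% and 6.96% in sgControl, a higher share in every sgH2AC19 library. With the reads of the tested EEF1A1 pseudogenes added to EEF1A1, the share was 4.19% to 4.55% in sgH2AC19 and 3.76% to 3.96% in sgControl, and the groups were still separate.

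EEF2, the translocase, had 380, 363 and 331 FPKM in sgH2AC19 and 371, 378 and 366 in sgControl, overlapping groups with a log2 change of -0.06 (SE 0.055, limma adjusted p = 0.507). EEF2K, the kinase that inactivates eEF2, rose, with 6.46, 6.51 and 6.6 FPKM in sgH2AC19 and 5.59, 5.36 and 5.74 in sgControl (log2 fold change 0.20, SE 0.046, limma adjusted p = 0.0228). Its sgH2AC19 libraries were all above the sgControl ones. The EEF2K call was lost without any single sgControl library and without sgH2AC19 replicate 1 or 2, with limma adjusted p up to 0.0867.

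The initiator tRNA carrier and its exchange factor gave no call. In the eIF2 group 0 of 6 genes passed limma's test over all genes. There were 2 falls at an unadjusted p under 0.05 and 1 fall with voom on the recovered reads. Of all 12871 genes tested, voom called 1819 higher and 1724 lower. The share of all genes at an unadjusted p under 0.05 is not given here. Such counts, in this and later paragraphs, therefore stand without a background. EIF2S1, the phosphorylated α subunit, had 35.4, 38.0 and 37.1 FPKM in sgH2AC19 and 39.9, 41.2 and 40.8 in sgControl. These groups did not overlap, with a log2 change of -0.14 (SE 0.043) and a limma adjusted p = 0.0574. EIF2A, an alternative tRNA carrier, also had separate groups, at 21.6 to 22.8 FPKM in sgH2AC19 and 23.7 to 24.7 in sgControl (limma adjusted p = 0.10). EIF2S2, EIF2S3, EIF2S3B and EIF2D overlapped. EIF2S3B shares 97.4% of its aligned bases with EIF2S3, so reads of these genes cannot be told apart with certainty. For eIF2B the count was 0 of 5, with 2 falls at an unadjusted p under 0.05 and 0 with voom. Those 2, EIF2B4 and EIF2B5, had log2 fold changes of -0.15 and -0.16, and EIF2B1, EIF2B2 and EIF2B3 had overlapping groups.

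Of the 4 eIF2α kinases, EIF2AK2 fell, where 11% of all genes tested fell. EIF2AK2, the kinase PKR that senses double-stranded RNA, had 13.2, 12.8 and 12.5 FPKM in sgH2AC19 and 14.4, 14.3 and 15.2 in sgControl. The groups were separate, with a log2 change of -0.17 (SE 0.047, limma adjusted p = 0.0355), and the call was lost without any single library (limma adjusted p up to 0.125). EIF2AK1, the heme-regulated kinase and the most abundant of the 4 per length, had 43.2, 41.4 and 43.0 FPKM in sgH2AC19 and 40.2, 37.9 and 41.2 in sgControl. All sgH2AC19 values of EIF2AK1 were above the sgControl ones without passing the test (log2 fold change 0.10, limma adjusted p = 0.176). EIF2AK3 (PERK, of the endoplasmic reticulum) and EIF2AK4 (GCN2, which senses uncharged tRNA) overlapped, with log2 fold changes of -0.12 and -0.13.

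The cap-binding machinery gave no call either. Of the 11 tested genes of eIF4F and its paralogs 0 passed limma's test over all genes, with 1 fall at an unadjusted p under 0.05 and 0 with voom. EIF4E, the cap-binding protein, had 6.82, 7.22 and 6.92 FPKM in sgH2AC19 and 6.87, 8.05 and 7.58 in sgControl (log2 fold change -0.09, SE 0.062, limma adjusted p = 0.341). EIF4G1, the scaffold, had 40.2, 38.6 and 38.9 FPKM in sgH2AC19 and 38.9, 38.2 and 39.4 in sgControl (log2 fold change 0.01, SE 0.039, limma adjusted p = 0.842). In both the groups overlapped. EIF4A1, the helicase, had 1.69, 1.87 and 1.48 FPKM in sgH2AC19 and 2.01, 1.83 and 1.55 in sgControl, from 292 to 403 reads per library (log2 fold change -0.06, SE 0.091, limma adjusted p = 0.681), and its reads are taken up again with the pseudogenes below.

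Among the other genes of eIF4F and its paralogs, EIF4G2 had 162 to 183 FPKM in sgH2AC19 and 182 to 190 in sgControl (limma adjusted p = 0.127). EIF4G2 is a scaffold that does not bind EIF4E. EIF4E2, a cap-binding repressor, was higher in every sgH2AC19 library (log2 fold change 0.09, limma adjusted p = 0.232), and EIF4E3 lower in every one (log2 fold change -0.14, limma adjusted p = 0.168). EIF4A2, EIF4A3, EIF4B, EIF4G3 and EIF4H overlapped, with log2 fold changes of -0.03 to 0.06. EIF4A2 made up 96.0% to 96.5% of the summed FPKM of EIF4A1 and EIF4A2 in sgH2AC19 and 95.6% to 96.4% in sgControl, overlapping shares. With the reads of the tested EIF4A1 pseudogenes added to EIF4A1, the share was 64.5% to 65.1% in sgH2AC19 and 69.0% to 70.7% in sgControl. It was then lower in every sgH2AC19 library. Reads of EIF4A1 and its pseudogenes cannot be told apart with certainty, so the level of EIF4A1 and both shares are uncertain.

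Of the eIF4E-binding proteins, 0 of 3 tested genes passed limma's test, with 1 fall at an unadjusted p under 0.05 and 0 with voom. EIF4EBP1, the mTOR-controlled repressor of EIF4E, had 58.4, 53.5 and 42.6 FPKM in sgH2AC19 and 60.9, 63.8 and 58.6 in sgControl. The groups did not overlap, but sgH2AC19 replicate 3 lay far below the other 2 and the limma adjusted p was 0.132 (log2 fold change -0.25, SE 0.11). EIF4EBP2 and EIF4ENIF1 overlapped. EIF4EBP3 stood at 0.219 FPKM or less in every library and was not tested.

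In the late steps, EIF5A2 fell. EIF5A2, the minor paralog of the hypusine-carrying factor eIF5A, had 3.69, 4.57 and 3.94 FPKM in sgH2AC19 and 4.97, 4.98 and 5.24 in sgControl. All sgH2AC19 values were below the sgControl ones, with a log2 change of -0.26 (SE 0.072, limma adjusted p = 0.0377). The call was lost without any single sgControl library and without sgH2AC19 replicate 1 or 3, with limma adjusted p up to 0.116, and also with all genes above 0 FPKM tested (limma adjusted p = 0.124). EIF5A itself had 105 to 113 FPKM in sgH2AC19 and 105 to 111 in sgControl, so that EIF5A2 held 3.17%, 3.97% and 3.63% of the summed FPKM of these paralogs in sgH2AC19 and 4.49%, 4.54% and 4.51% in sgControl. EIF5AL1, a retrogene 97.4% identical to EIF5A over the aligned bases, was level at a log2 change of 0.00 (SE 0.041).

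Subunit joining and the methylation of elongation factors gave no call by limma. EIF6, which keeps the large subunit from joining too early, had 54.8, 48.7 and 48.9 FPKM in sgH2AC19 and 56.6, 56.4 and 57.5 in sgControl, separate groups that did not pass the test (log2 fold change -0.16, SE 0.054, limma adjusted p = 0.0691). EIF5B, the joining GTPase, overlapped (log2 fold change 0.02). Of the 5 lysine methyltransferases 0 passed limma's test, with 1 rise at an unadjusted p under 0.05 and 0 with voom. That gene, EEF1AKMT2, had 2.23, 3.10 and 2.63 FPKM in sgH2AC19 and 2.04, 2.06 and 1.93 in sgControl (log2 fold change 0.27, SE 0.092, limma adjusted p = 0.0715). EEF1AKMT4 passed the filter with 3 sgControl libraries and 1 sgH2AC19 library at 1 FPKM or more, from as few as 29 reads. It had 0.852, 0.834 and 1.70 FPKM in sgH2AC19 and 1.53, 1.79 and 1.52 in sgControl, and the groups overlapped (log2 fold change -0.32, SE 0.15, limma adjusted p = 0.180). EEF1AKMT1, EEF1AKMT3 and EEF2KMT had log2 fold changes of -0.07, 0.00 and -0.11.

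In all, 6 genes were not tested. EEF1G, a structural subunit of the eEF1 exchange factor, was listed at 0 in every library. In GENCODE 29 only 0.0736% of its exonic bases are free of other genes' exons, and the gene that shares most of them, ENSG00000255508, stood at 0.00487 FPKM or less. Its level cannot be read from this table. The read-through genes EEF1AKMT4-ECE2 and EEF1E1-BLOC1S5 were at 0, EIF4E1B had 0.0140 FPKM in sgControl replicate 3 and 0 elsewhere, and EIF3CL and EIF4EBP3 are given above.

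Several of these genes have near-identical pseudogenes with FPKM of their own, so that reads of a parent gene and its copies cannot be told apart with certainty. Of 155 pseudogenes with these names, 67 were at 0 in all libraries and 22 were tested, from 12 parent genes. The windows below are 60 coding bases of a parent gene and the matching bases of its copy, each read from GRCh38 in the gene's own direction, with differing bases in capitals. Among gap-free coding windows within 1 exon of the parent, each was chosen for having the most differing bases. The windows therefore show where these pairs differ most. Over all aligned bases, EEF1A1P5, EIF3FP3 and EIF4A1P10 were 99.7%, 97.5% and 97.0% identical to their parents. The EEF1A1 window lies in exon 3 at chr6:73519367-73519426 (minus strand), that of EIF3F in exon 5 at chr11:7994433-7994492 (plus strand) and that of EIF4A1 in exon 4 at chr17:7575119-7575178 (plus strand). The copies lie at chr9:133019720-133019779 (plus strand), chr2:58252112-58252171 (plus strand) and chrX:92114197-92114256 (minus strand).
EEF1A1: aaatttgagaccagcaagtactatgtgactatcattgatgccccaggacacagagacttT
EEF1A1P5: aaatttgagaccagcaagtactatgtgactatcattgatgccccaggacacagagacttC
EIF3F: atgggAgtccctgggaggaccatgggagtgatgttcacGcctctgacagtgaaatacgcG
EIF3FP3: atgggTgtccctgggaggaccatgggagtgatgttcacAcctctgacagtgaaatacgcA
EIF4A1: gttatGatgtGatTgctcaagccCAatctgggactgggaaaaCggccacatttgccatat
EIF4A1P10: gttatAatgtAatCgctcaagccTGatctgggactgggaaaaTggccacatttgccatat

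EEF1A1P5 matched EEF1A1 in 99.7% of its aligned bases, and the 2 tested EEF1A1 pseudogenes held 47.9% to 48.8% of the family's reads in sgH2AC19 and 47.7% to 48.3% in sgControl. EEF1A1P5 had 2200, 2074 and 2099 FPKM in sgH2AC19 and 2362, 2332 and 2318 in sgControl, and fell like its parent (log2 fold change -0.14, SE 0.038, limma adjusted p = 0.0382), though its call was lost without any single sgControl library and without sgH2AC19 replicate 2 or 3 (limma adjusted p up to 0.532 over all alternatives). EEF1A1P6 fell as well (log2 fold change -0.22, SE 0.043, limma adjusted p = 0.0130), a call lost without sgControl replicate 1. With the pseudogenes' reads added to the parent, EEF1A1 remained called, at a log2 fold change of -0.16 (limma adjusted p = 0.0213).

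EIF3F and its copy EIF3FP3 also moved alike. EIF3FP3, 97.5% identical to EIF3F, had 31.0, 30.9 and 29.7 FPKM in sgH2AC19 and 24.5, 23.6 and 25.1 in sgControl, a rise of 0.31 (SE 0.043, limma adjusted p = 0.00350). It took 20.5% to 21.2% of the pair's reads in sgH2AC19 and 20.6% to 21.2% in sgControl. With both added up, EIF3F had a log2 fold change of 0.31 (limma adjusted p = 0.00512).

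EIF4A1 and its copy EIF4A1P10 gave different values. EIF4A1P10, 97.0% identical to EIF4A1, had 80.5, 85.3 and 77.5 FPKM in sgH2AC19 and 58.4, 58.6 and 61.6 in sgControl. This copy was higher in every sgH2AC19 library, with a log2 change of 0.44 (SE 0.049, limma adjusted p = 0.00171), and was called under each of the 13 alternatives that hold it. The other 3 tested copies did not pass the test, among them EIF4A1P4 (log2 fold change 0.44, limma adjusted p = 0.10) and EIF4A1P7 (log2 fold change 0.09, limma adjusted p = 0.702). The 4 tested EIF4A1 pseudogenes held 92.3% to 93.3% of the family's reads in sgH2AC19 and 88.8% to 91.6% in sgControl, the largest share among the 12 families. With their reads added, EIF4A1 passed the test as higher, at a log2 change of 0.36 (SE 0.050, limma adjusted p = 0.00371), against -0.06 alone. In GENCODE 29, 51.4% of the exonic bases of EIF4A1 are free of other genes' exons. The gene that shares most of the others, ENSG00000264772, stood at 0.0369 FPKM or less. The level of EIF4A1 is therefore uncertain.

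For the other families the sum made no difference to the call. EEF1B2, whose copies held 40.7% to 44.9% of the reads in sgH2AC19 and 42.1% to 42.3% in sgControl, had a summed log2 fold change of -0.17 (limma adjusted p = 0.0425). EIF1AX stayed short of the threshold with its copy EIF1AXP1, which took 24.5% to 29.2% of the reads in sgH2AC19 and 23.5% to 25.7% in sgControl (summed log2 fold change -0.24, limma adjusted p = 0.0549). EIF4E and its copies, which held 49.1% to 52.8% of the reads in sgH2AC19 and 47.3% to 50.5% in sgControl, summed to -0.04 (limma adjusted p = 0.614). EIF4EP1 and EIF5AP4 rose by themselves (log2 fold changes 0.30 and 0.50, limma adjusted p = 0.0454 and 0.0306), the second from 28 to 63 reads per library. Both calls were lost without sgControl replicate 1 or 3 or sgH2AC19 replicate 2, and that of EIF4EP1 also without sgControl replicate 2 or sgH2AC19 replicate 1.

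Many mRNAs of the translation machinery begin with a C followed by pyrimidines, a 5′ terminal oligopyrimidine (TOP) tract through which mTOR and LARP1 control their translation. RefSeq promoter windows (GRCh38.p14) were found for 57 of the 71 genes, and each was searched on the gene's strand for a C at the annotated start followed by at least 4 bases that are each C or T. Of 52 tested members with a window, 12 (23.1%) began so, against 5.53% of all tested genes with a window and 4.04% of 27305 windows in the table. The windows below cover 10 bases before the annotated start and 20 from it on, with the tract in capitals, and are shown for called members with a tract, for EEF2 and EIF4B, and for EIF1 and EIF3B, which have none. Their positions are chr6:73521013-73521042 (minus) for EEF1A1, chr22:36529147-36529176 (minus) for EIF3D, chr11:7987327-7987356 (plus) for EIF3F, chr19:38619178-38619207 (plus) for EIF3K and chr11:32583821-32583850 (plus) for EIF3M. EEF2 lies at chr19:3985444-3985473 (minus), EIF4B at chr12:53006446-53006475 (plus), EIF1 at chr17:41688875-41688904 (plus) and EIF3B at chr7:2354817-2354846 (plus).
EEF1A1: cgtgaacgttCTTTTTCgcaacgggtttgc
EIF3D: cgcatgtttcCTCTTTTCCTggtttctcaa
EIF3F: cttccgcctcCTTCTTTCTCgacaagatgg
EIF3K: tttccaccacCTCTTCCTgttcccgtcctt
EIF3M: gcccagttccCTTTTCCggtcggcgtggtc
EEF2: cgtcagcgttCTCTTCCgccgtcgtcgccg
EIF4B: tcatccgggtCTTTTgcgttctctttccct
EIF1: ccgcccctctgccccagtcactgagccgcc
EIF3B: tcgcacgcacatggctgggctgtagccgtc

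Fold changes of members with and without such a start are set side by side here, with no test. Among the 12, 1 rose (EIF3F) and 4 fell (EEF1A1, EIF3D, EIF3K and EIF3M), with a median log2 fold change of -0.07. Among the 40 without it, 2 rose and 5 fell, with a median of -0.09. Over all tested genes the medians were -0.02 for 501 genes with such a start, of which 48 rose and 83 fell, and 0.00 for 8551 without it, of which 1130 rose and 902 fell. A match is a description of the annotated start and not of the start used in these cells.

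Genes that act on these factors were taken from 7 lists. In the mTOR and MNK list 3 of 15 tested genes rose, 1 fell and 11 did not pass the test, with a median log2 fold change of 0.01; of all genes tested, 12% rose and 11% fell. MKNK2, a kinase that phosphorylates EIF4E, had 17.9, 16.4 and 17.0 FPKM in sgH2AC19 and 8.98, 9.22 and 9.05 in sgControl. The groups lay far apart, with a log2 change of 0.84 (SE 0.047, limma adjusted p = 0.000243), and the call held under each of the 14 alternatives. MKNK1, its paralog, had 1.84 to 2.09 FPKM in sgH2AC19 and 2.16 to 2.58 in sgControl and did not pass the test (limma adjusted p = 0.136). MTOR, the kinase that controls the eIF4E-binding proteins, had 6.70, 6.81 and 6.71 FPKM in sgH2AC19 and 5.62, 5.47 and 5.66 in sgControl (log2 fold change 0.23, SE 0.043, limma adjusted p = 0.0103). RPS6, the ribosomal protein at the end of the S6 kinase arm, had 394, 383 and 357 FPKM in sgH2AC19 and 450, 449 and 449 in sgControl (log2 fold change -0.25, SE 0.045, limma adjusted p = 0.00941), a call lost with all genes above 0 FPKM tested (limma adjusted p = 0.0595). DDIT4, an inhibitor upstream of mTOR, rose (log2 fold change 0.24, limma adjusted p = 0.0361), but its call was lost in 6 of the 14 alternatives, among them without sgControl replicate 1 or 3 and without any single sgH2AC19 library (limma adjusted p up to 0.144 over all alternatives).

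**Figure D3:**
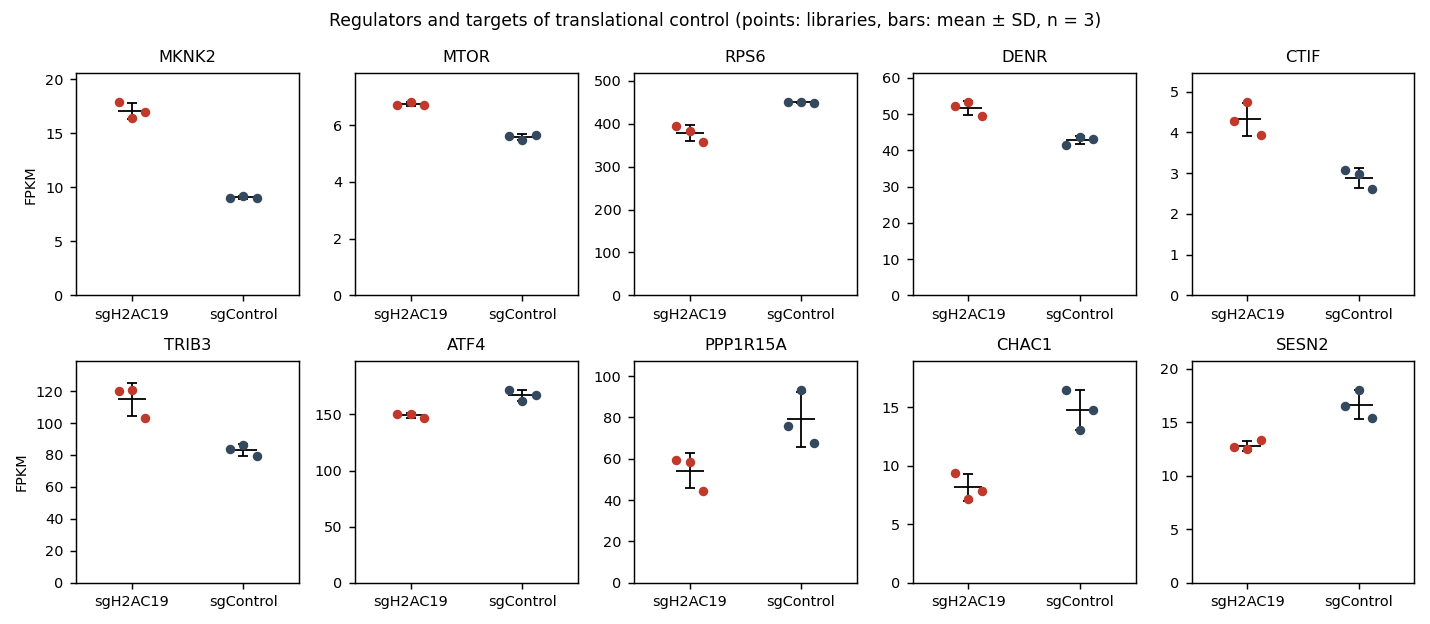
FPKM on linear axes from 0 for 10 genes that regulate translation factors or answer to eIF2, with points for the 3 libraries of each group and bars for mean and SD. MKNK2 lies at 16.4 to 17.9 in sgH2AC19 and 8.98 to 9.22 in sgControl, and TRIB3 lies on the opposite side of sgControl from ATF4, PPP1R15A, CHAC1 and SESN2.

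The integrated stress response is the program that follows phosphorylation of EIF2S1. Of 10 tested genes listed for it, regulators among them, 6 fell, 1 rose and 3 did not pass the test. Their median log2 fold change was -0.24, and of all genes tested 11% fell and 12% rose. ATF4, the transcription factor of the response, had 151, 151 and 147 FPKM in sgH2AC19 and 172, 162 and 167 in sgControl (log2 fold change -0.16, SE 0.039, limma adjusted p = 0.0257). CHAC1, a glutathione-degrading enzyme, had 9.42, 7.17 and 7.87 FPKM in sgH2AC19 and 16.5, 13.1 and 14.8 in sgControl (log2 fold change -0.79, SE 0.11, limma adjusted p = 0.00362). SESN2, a leucine sensor upstream of mTOR, had 12.7, 12.5 and 13.4 FPKM in sgH2AC19 and 16.5, 18.1 and 15.4 in sgControl (log2 fold change -0.35, SE 0.064, limma adjusted p = 0.00978). All 3 genes were lower in each sgH2AC19 library than in any sgControl library. PPP1R15A and PPP1R15B, which direct the phosphatase to EIF2S1, had log2 fold changes of -0.54 (SE 0.15) and -0.22 (SE 0.052), and ATF3 of -0.48 (SE 0.11), with limma adjusted p = 0.0367, 0.0246 and 0.0230. TRIB3, a pseudokinase induced by ATF4, went the other way, with 120, 121 and 103 FPKM in sgH2AC19 and 83.6, 86.2 and 79.1 in sgControl (log2 fold change 0.46, SE 0.071, limma adjusted p = 0.00519). The calls of CHAC1, SESN2 and TRIB3 held under all 14 alternatives, whereas PPP1R15A and ATF4 lost theirs in 6 each, PPP1R15B in 4 and ATF3 in 3. These losses included sgControl replicates 1 and 2 for all 4 genes, replicate 3 for ATF4 and PPP1R15B, sgH2AC19 replicates 1 and 2 for ATF4 and PPP1R15A, and replicate 3 for PPP1R15A.

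Among 10 genes of termination, recycling and rescue, DENR rose and GTPBP1 fell, with a list median of -0.02. Of all genes tested, 12% rose and 11% fell, which is also the background for the other lists of this paragraph. DENR, which releases tRNA from spent small subunits and helps reinitiation, had 52.4, 53.3 and 49.6 FPKM in sgH2AC19 and 41.5, 43.8 and 43.2 in sgControl (log2 fold change 0.27, SE 0.045, limma adjusted p = 0.00751), and its partner MCTS1 had 7.01 to 7.78 and 7.61 to 8.18. The DENR call held under all 14 alternatives, and that of GTPBP1, a GTPase linked to stalled ribosomes (log2 fold change -0.24, limma adjusted p = 0.0399), was lost in 8, each left-out library among them. CTIF, which takes part in translation on nuclear cap-binding complexes, was the 1 call among 14 helicases and cofactors, with 4.28, 4.74 and 3.94 FPKM in sgH2AC19 and 3.09, 2.98 and 2.62 in sgControl (log2 fold change 0.45, SE 0.077, limma adjusted p = 0.00786). In hypusine and diphthamide synthesis, which modify eIF5A and eEF2, 1 of 8 rose (DPH3, log2 fold change 0.42) and 1 fell (DNAJC24, log2 fold change -0.17), with limma adjusted p = 0.0211 and 0.0492, calls lost in 5 and 9 of the alternatives. For DPH3 these include sgControl replicates 2 and 3 and sgH2AC19 replicates 1 and 2 left out, and for DNAJC24 each library.

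The poly(A)-binding proteins and the mitochondrial factors gave no call by limma. Of 7 tested genes of the poly(A)-binding list 0 passed, with 1 rise and 1 fall at an unadjusted p under 0.05 and 0 with voom. PABPC1, the main poly(A)-binding protein and partner of EIF4G1, had 130 to 133 FPKM in sgH2AC19 and 139 to 142 in sgControl (log2 fold change -0.10, limma adjusted p = 0.0853). Of 8 tested mitochondrial translation factors 0 passed, with 1 rise at an unadjusted p under 0.05 and 0 with voom, and their median log2 fold change was 0.07.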

How the data were processed

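Per the labels' protocols, a SMARTer kit turned A549 RNA into libraries of 3 sgH2AC19 and 3 sgControl samples. The deposited table gives FPKM computed by the authors, per the file headers, in 1 column per library. Columns written sgH2AC and sgNC were taken as sgH2AC19 and sgControl, and their trailing number as the replicate. Names of the aligner, counting tool and annotation, and the strand setting, were not given in the sources used here. The submitters' processing notes list GRCm38 and mm10, builds of the mouse genome, although each of the 62700 gene IDs matched a human gene name.

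Reads per gene and per library were recovered, since the FPKM of a gene go up in steps worth 1 read. All 12871 genes tested (100% of them) gave whole reads in every library, 3760 at the GENCODE 29 length and the rest at the shortest length that did so. The tolerance was 0.001 reads at those shortest lengths. At the GENCODE 29 length it was wider for genes with many reads.

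The fit used log2(FPKM + 1) of genes that reached 1 FPKM in 3 or more libraries. Fold changes are on this scale, which understates changes of low genes. The comparison was limma 3.58.1 under R 4.3.3, with its trend option, two-sided, with Benjamini-Hochberg adjustment over all genes tested and a threshold of 0.05. Tested on simulated data with a dispersion of 0.003 for sgH2AC19 against sgControl over 12676 genes, it recovered 8 of 66 changes of 0.25 on the log2 scale, 52 of 63 of 0.5 and 63 of 66 of 1, and called 10 of 12481 unchanged genes. The simulation changed far fewer genes than the 2967 called in the data, and gave all genes the same dispersion. Both settings affect the adjusted p, so these rates do not give the recovery in these data. Paralog shares are given as values and were not tested. Copies were aligned to GENCODE 29 transcripts of the parent with blastn 2.17.0. Promoter windows are from RefSeq. Other steps used Python 3.11.15 with pandas 2.3.3.

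The members and lists were chosen with earlier results of these data known. All members are named, those called with every library's value, together with EIF4E, EIF4G1, EIF4A1, EIF2S1, EEF1A1 and EEF2, and up to 3 called genes a list, by adjusted p. Values of other genes, such as ATF4, PPP1R15A, PPP1R15B, ATF3, DDIT4 and the pseudogenes, were added after they had been seen. The alternatives were a pseudocount of 0.1, all genes above 0 FPKM, a minimum mean of 1 FPKM, median-ratio and upper-quartile scaling, the replicate number as a block, voom on the recovered reads, and leaving out each library. Adding the tested pseudogenes' reads to their parent gene was chosen after seeing the data.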

Additional observations from a re-analysis of the deposited data

How the results depend on the processing

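Under all 14 alternatives the median log2 fold change of the translation factor genes stayed below 0, between -0.10 and -0.06. With all genes above 0 FPKM, which tests 36938 genes, 5 members fell and 1553 genes were called in all, and EEF1A1, EEF2K, EIF2AK2, EIF3D, EIF3H and EIF5A2 lost their calls. Leaving out 1 library gave 1 to 3 members called higher, 1 to 12 called lower and 1513 to 3429 genes called. Voom on the recovered reads called 17 members and 3543 genes, against 13 and 2967. With pseudogene reads added to the partner gene, the mean share of EIF4A2 was 64.8% in sgH2AC19 and 69.8% in sgControl, and that of EEF1A2 4.40% and 3.85%. Single genes that turned their direction were EIF4A1 (0.36 with pseudogenes added), EIF4G1 (-0.0047 without sgH2AC19 replicate 1, and -0.0047 to 0.025 over single libraries left out) and EEF2 (0.00038 without sgH2AC19 replicate 3). The labels do not say whether replicate numbers pair the libraries. Deviations of same-numbered libraries correlated weakly across genes, at 0.052, 0.035 and 0.060, and those of unlike numbers at -0.046 to 0.0045. Each library thus correlated best with its own number, a hint from the data and not the design. With the replicate block, 3 members rose, 9 fell, and 2729 genes were called. Of the 13 members called, EIF2AK2, EIF3D and EIF5A2 were not called with the block, and EIF1AD and EIF1AX were added. The cause of these differences was not tested. Among the members tested, EEF1AKMT4 had the fewest reads, 29 to 69 per library.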
